A study of Mus musculus with 12 samples.

Results

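The 10 mouse genes that were higher in ALKKO than in KO thymocytes are described here, a set drawn from 28141 genes with at least 1 read in 12 RNA libraries. The 10 members are Lrrc66, Lrrn3, Slc30a4, Mcam, Cpsf4l, Gsdme, Tha1, Trim66, 5830468F06Rik and 1700026D11Rik. They were chosen on the ALKKO and KO values, so that contrast is a description and carries no test. All 10 had reads, and all 10 passed the low-count filter, which kept 16052 genes. Lrrc66 and 1700026D11Rik passed it only through the ALKKO libraries.

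NPM-ALK is a fusion of nucleophosmin with the kinase part of anaplastic lymphoma kinase, and it signals through STAT3 in anaplastic large cell lymphoma, a T-cell cancer. DNMT1 is the enzyme that copies DNA methylation onto new DNA strands when a cell divides. In mice, NPM-ALK placed under T-cell control leads to thymic lymphoma after a latent period in which thymocytes carry the kinase but are not transformed.

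The study sequenced 4 groups of 3 libraries each. Ctrl libraries came from thymocytes of DNMT1 fl/fl mice, in which the gene is flanked by recombination sites but intact (20 to 25 weeks old, all male). KO libraries came from thymocytes of DNMT1 fl/fl CD4-CRE mice, in which Cre driven by Cd4 deletes the gene in T cells (20 to 21 weeks, with 1 female, KO 2). ALK libraries came from T cell lymphoma cells of NPM-ALK+ mice with no floxed Dnmt1 in the label (22 to 31 weeks, male). ALKKO libraries came from thymocytes of NPM-ALK+, DNMT1 fl/fl CD4-CRE mice, which carry the transgene and the deletion together (19 to 25 weeks, male). The human transgene is driven by a Cd4 enhancer and promoter, Ctrl and KO mice lack it, and the background was a mixture of C57Bl/6 and SV/129. No library came from NPM-ALK thymocytes with intact Dnmt1 before a tumor, so a level raised before transformation could be read only in thymocytes that had also lost Dnmt1. For that reason the set is named by its rule: genes higher in ALKKO than in KO thymocytes. The labels do not state that the libraries of a group are separate animals beyond their ages and sexes, and the methods describe biological triplicates.

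Between 12473857 and 18864327 reads per library fell on genes. Alk reads followed the transgene label, at 34.9 to 55.0 CPM (counts normalized to library size) in ALK and ALKKO and at most 0.431 CPM elsewhere, and Dnmt1 was at 205 to 244 CPM in every KO and ALKKO library against 379 to 788 CPM in the others. The summed double-positive thymocyte markers were at 4040 to 5835 CPM in Ctrl and ALKKO and at 428 to 606 CPM in ALK, and Rag1 of that list is listed at 0 throughout. The library KO 2 stood apart, with B cell markers summing to 1835 CPM where the Ctrl and ALKKO libraries had at most 81.6 CPM and with double-positive markers at 2051 CPM. In bulk RNA, fewer cells of a type and less RNA per cell cannot be told apart.

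Promoter sequences were at hand for 8 of the 10 genes, in 9 windows running from 250 bases before to 50 bases after a transcript start (RefSeq, GRCm38.p6). They are shown for 5 genes, as examples of motif matches and of the number of CpG sites on which methylation could act. The STAT, CRE and AP-1 motifs named below were each found in 1 of the 9 windows. In the first 3, capitals mark a match to a transcription factor motif searched on both strands. The upstream start of Cpsf4l (chr11:113709968-113710267, minus strand) held 2 matches to the STAT motif TTCNNNGAA, beginning 127 and 68 bases before the start, and 8.3% of all 32851 promoter windows held at least 1. Mcam (chr9:44134408-44134707, plus strand) held the CRE motif TGACGTCA 29 bases before its start, a motif present in 1.79% of windows. 1700026D11Rik (chr2:132490478-132490777, plus strand) held the AP-1 motif TGANTCA 37 bases into the transcript (7.81% of windows).
Cpsf4l: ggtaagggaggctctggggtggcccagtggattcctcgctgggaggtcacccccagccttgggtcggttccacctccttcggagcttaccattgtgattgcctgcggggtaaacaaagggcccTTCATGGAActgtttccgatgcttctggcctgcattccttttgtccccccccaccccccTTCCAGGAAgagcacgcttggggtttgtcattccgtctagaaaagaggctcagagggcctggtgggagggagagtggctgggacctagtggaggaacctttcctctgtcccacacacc
Mcam: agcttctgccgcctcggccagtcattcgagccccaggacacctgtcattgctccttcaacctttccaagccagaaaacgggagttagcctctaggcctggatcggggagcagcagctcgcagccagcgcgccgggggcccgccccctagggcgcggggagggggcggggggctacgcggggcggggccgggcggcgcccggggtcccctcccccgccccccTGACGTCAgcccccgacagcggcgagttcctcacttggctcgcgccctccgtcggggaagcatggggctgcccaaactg
1700026D11Rik: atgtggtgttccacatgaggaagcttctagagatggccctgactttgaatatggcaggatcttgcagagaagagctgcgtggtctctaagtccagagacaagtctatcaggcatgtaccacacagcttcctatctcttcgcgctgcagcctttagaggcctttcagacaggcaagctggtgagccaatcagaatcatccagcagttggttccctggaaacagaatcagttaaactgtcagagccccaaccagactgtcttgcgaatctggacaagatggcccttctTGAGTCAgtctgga
In the next pair, capitals mark the CpG sites. Slc30a4 (chr2:122702614-122702913, minus strand) held 46 CpGs and Lrrc66 (chr5:73632372-73632671, minus strand) held 7, where the median window held 7.
Slc30a4: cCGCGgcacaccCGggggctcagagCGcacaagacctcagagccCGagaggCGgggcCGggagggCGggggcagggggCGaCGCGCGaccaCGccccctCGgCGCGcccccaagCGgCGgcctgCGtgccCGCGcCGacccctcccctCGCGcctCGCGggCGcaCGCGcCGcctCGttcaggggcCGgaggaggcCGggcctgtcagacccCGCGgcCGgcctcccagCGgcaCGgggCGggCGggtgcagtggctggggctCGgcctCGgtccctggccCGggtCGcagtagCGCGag
Lrrc66: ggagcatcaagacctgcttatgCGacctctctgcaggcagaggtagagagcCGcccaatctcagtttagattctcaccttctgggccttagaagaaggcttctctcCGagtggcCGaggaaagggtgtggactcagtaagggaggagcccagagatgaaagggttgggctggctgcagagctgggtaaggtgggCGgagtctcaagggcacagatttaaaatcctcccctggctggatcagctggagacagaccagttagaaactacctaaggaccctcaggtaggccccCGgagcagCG

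The other windows held fewer or other features. Gsdme held 24 CpGs and none of the 5 motifs searched, Tha1 held 11 CpGs and the TATA motif TATAAA 30 bases before its start, and Trim66 held 4 CpGs and that motif on the other strand 205 bases before (13.6% of windows). Mcam held 29 CpGs and 1700026D11Rik 4. The second Cpsf4l start held 8 CpGs and the E-box motif CACGTG (7.15% of windows). CpG number ran from 4 to 46, and no motif was found in more than 2 of the 9 windows. Whether either feature bears on the ALKKO levels was not tested. A match is a run of letters and not a known binding site.

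The genes were first set in ALK tumors against Ctrl thymocytes, a comparison whose groups the rule of choice did not use. Earlier results of these data were known when the members were chosen, so the result is not fully independent of the choice for any member. Of the 10, 6 rose and 0 fell (0 also at an unadjusted p under 0.05 and 0 by DESeq2) in edgeR's quasi-likelihood test, with p-values adjusted by Benjamini and Hochberg's method over 16052 genes and a log2 fold change above 1. Lrrc66 had 6 to 9 reads per Ctrl library and 1700026D11Rik 3 to 4. A fall could hardly have been called for them, so the 0 says little about these genes. Over all genes tested, 8.41% were called higher and 12% lower. The median log2 fold change of the members was 1.74, with the few-read members Lrrc66 and 1700026D11Rik included, and that of all genes was 0.05. Of the 6, Tha1, Trim66 and 5830468F06Rik, also stand on a list that the study drew from these libraries as higher in ALK and in ALKKO, so for them the tumor result is not independent evidence. With 3 libraries against 3, the smallest two-sided p that exact permutation of 1 gene's values can give is 0.1.

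Cpsf4l, a relative of the zinc finger subunit Cpsf4 of the factor that cleaves RNA before polyadenylation, showed the largest rise of the members in tumors. The gene spans chr11:113698172-113710017 on the minus strand of GRCm38 (GENCODE M21, as are all spans given here). It measured 1.74, 1.55 and 1.67 CPM in Ctrl, 4.93, 1.72 and 4.65 CPM in KO, 415, 781 and 424 CPM in ALK, with 14.1, 9.33 and 12.01 CPM in ALKKO. The 4 groups formed steps, with every ALKKO library above every KO library and every ALK library far above both, and KO 2 alone among the KO libraries lay at the Ctrl level. In ALK against Ctrl the log2 fold change was 8.34 (SE 0.475, adjusted p = 6.82e-06 from edgeR), the ninth largest of all genes tested. ALKKO lay 2.83 above Ctrl and ALK 5.51 above ALKKO on the log2 scale, a fitted fold of 45.7 between tumors and ALKKO.

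Mcam encodes an adhesion molecule of the immunoglobulin family (CD146) that is also found on endothelial cells and pericytes (chr9:44134469-44142727, plus strand). It measured 30.2, 24.9 and 37.3 CPM in Ctrl, 16.2, 33.0 and 26.2 CPM in KO, 124, 138 and 104 CPM in ALK, with 70.3, 77.2 and 47.1 CPM in ALKKO. ALK and ALKKO did not overlap with Ctrl, KO or each other. In ALK against Ctrl the log2 fold change was 1.99 (SE 0.281, adjusted p = 0.00113 from edgeR), and ALKKO lay 1.07 above Ctrl. Endothelial markers summed to 179 to 242 CPM in Ctrl, 230 to 495 in KO, 179 to 283 in ALK and 236 to 264 in ALKKO, with 0 of 5 called in ALK against Ctrl. Pericyte and fibroblast markers summed to 108 to 232 CPM in Ctrl libraries but 600 to 1837 in tumors, with 2 of 5 called higher, the collagens Col1a1 and Col3a1. They were at 103 to 511 CPM in KO and 124 to 388 in ALKKO. Of the pericyte genes in that list, Pdgfrb was at 13.3 to 18.9 CPM in Ctrl libraries against 22.1 to 37.9 in tumors (log2 fold change 0.85, adjusted p = 0.0478 from edgeR, under the fold threshold), with every tumor above every Ctrl library. Rgs5 ranged from 23.9 to 62.4 CPM over the Ctrl libraries, and from 17.0 to 48.5 CPM over the tumors. The part of these cells in the Mcam level was not tested.

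Gsdme encodes gasdermin E, which forms membrane pores once it is cleaved (chr6:50188888-50263862, minus strand). It measured 1.43, 0.697 and 1.62 CPM in Ctrl, 7.15, 3.87 and 5.19 CPM in KO, 3.90, 10.04 and 6.80 CPM in ALK, with 13.7, 13.0 and 8.37 CPM in ALKKO. All 9 libraries outside Ctrl were above all Ctrl libraries, including KO libraries without the transgene. The log2 fold change was 2.46 in ALK against Ctrl (SE 0.480, adjusted p = 0.00458 from edgeR) and 2.11 in KO against Ctrl, which carries no test here because the KO values entered the choice. ALKKO and ALK overlapped.

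Tha1, threonine aldolase, splits threonine into glycine and acetaldehyde (chr11:117867952-117873481, minus strand). It measured 6.71, 6.65 and 7.17 CPM in Ctrl, 6.41, 9.99 and 9.10 CPM in KO, 25.3, 14.4 and 18.3 CPM in ALK, with 35.9, 16.3 and 28.4 CPM in ALKKO. Both transgenic groups were above all Ctrl and KO libraries, and they overlapped each other. The log2 fold change in ALK against Ctrl was 1.499 (SE 0.329, adjusted p = 0.00799 from edgeR).

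Trim66, a TIF1 family protein that binds heterochromatin protein 1, and the antisense RNA gene 5830468F06Rik differed from tumor to tumor. Trim66 lies at chr7:109449006-109508134 and 5830468F06Rik at chr8:15015092-15018907, both on the minus strand. Trim66 measured 0.740, 1.07 and 0.701 CPM in Ctrl, 0.901, 0.861 and 0.809 CPM in KO, 17.5, 1.05 and 5.87 CPM in ALK, with 12.5, 5.86 and 7.60 CPM in ALKKO. The tumor ALK 2 lay within the Ctrl range, while ALK 1 was the highest of all 12 libraries. Its log2 fold change in ALK against Ctrl was 3.27 (SE 0.808, adjusted p = 0.0137 from edgeR). 5830468F06Rik measured 3.17, 5.09 and 2.86 CPM in Ctrl, 4.35, 6.89 and 3.10 CPM in KO, 3.83, 26.5 and 50.5 CPM in ALK, with 46.1, 27.4 and 32.1 CPM in ALKKO. Here ALK 1 was the tumor at the Ctrl level and ALK 3 the highest library, so the tumor that lacked one transcript was not the tumor that lacked the other. Its log2 fold change was 2.86 (SE 0.731, adjusted p = 0.0159 from edgeR). Both calls were lost without Ctrl 1 (adjusted p = 0.0591 for Trim66 and 0.0653 for 5830468F06Rik) or without Ctrl 3 (0.0547 and 0.0626), and when only the ALK and Ctrl libraries were fitted (0.0582 and 0.0605). The call of 5830468F06Rik was also lost with labelled age as a covariate (adjusted p = 0.0550 from edgeR). Single tumors carried much of both values, since the log2 fold change of Trim66 was 2.03 without ALK 1 and that of 5830468F06Rik was 2.01 without ALK 3.

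**Figure D1:**
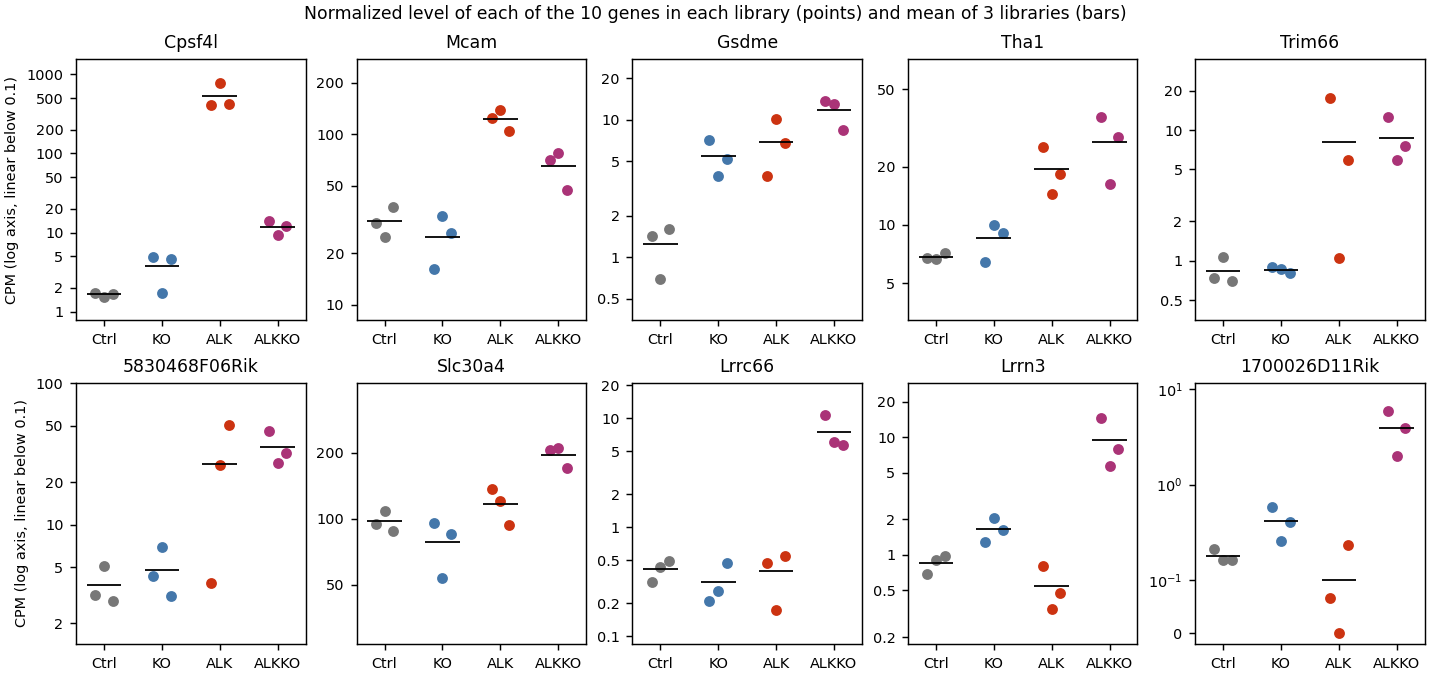
Normalized level (CPM, log axis, linear below 0.1) of each of the 10 genes in the 3 libraries of Ctrl, KO, ALK and ALKKO, with bars at the group means. The ALKKO points lie above all KO and Ctrl points in every panel, while the ALK points are highest for Cpsf4l and Mcam, split for Trim66 and 5830468F06Rik, and lie within or below the Ctrl range for Lrrn3.

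The other 4 members were not called in tumors, and for Lrrc66 and 1700026D11Rik the ALK and Ctrl reads were too few for a test to be informative. Slc30a4, which encodes the zinc transporter ZnT4 that moves zinc out of the cytosol (chr2:122681233-122702663, minus strand), measured 94.6, 109 and 88.1 CPM in Ctrl, 95.9, 53.5 and 85.3 CPM in KO, 137, 120 and 93.5 CPM in ALK, with 206, 209 and 171 CPM in ALKKO. Every ALKKO library exceeded every other library, and ALK overlapped Ctrl. In ALK against Ctrl the log2 fold change was 0.26, with a 95% interval from -0.21 to 0.74 (adjusted p = 0.379 from edgeR). The lowest KO value was that of KO 2, and without it the ALKKO against KO difference was 1.11 in place of 1.32 on the log2 scale.

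The remaining trio was high in ALKKO thymocytes and low in every other library. Lrrc66, a leucine-rich repeat protein (chr5:73606642-73632526, minus strand), measured 0.317, 0.429 and 0.485 CPM in Ctrl, 0.212, 0.258 and 0.472 CPM in KO, 0.470, 0.175 and 0.547 CPM in ALK, with 10.6, 6.04 and 5.68 CPM in ALKKO. Its ALKKO values rested on 89 to 175 reads per library and its other values on 2 to 9. The lowest ALKKO library was thus above the highest of the other 9. With 2 to 9 reads per library in ALK and Ctrl, the comparison of these groups could show little, and no fold or p is given for it. The fitted fold of ALKKO was 23.2 over KO and 17.8 over Ctrl.

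Lrrn3, a leucine-rich repeat membrane protein (chr12:41451668-41486431, minus strand), measured 0.687, 0.911 and 0.970 CPM in Ctrl, 1.27, 2.07 and 1.62 CPM in KO, 0.806, 0.349 and 0.469 CPM in ALK, with 14.5, 5.74 and 7.86 CPM in ALKKO. The KO libraries lay above all Ctrl libraries and well below ALKKO. In ALK against Ctrl the log2 fold change was -0.64 (95% interval from -1.71 to 0.43, adjusted p = 0.343 from edgeR). It rested on few reads, with 4 to 12 per ALK library and 13 to 18 per Ctrl library. 1700026D11Rik, an antisense RNA gene (chr2:132490634-132524057, plus strand), had 3 to 4 reads per library in Ctrl, 3 to 11 in KO, 0 to 3 in ALK and 33 to 96 in ALKKO. In CPM it measured 0.583, 0.258 and 0.404 in KO and 5.81, 1.97 and 3.90 in ALKKO. All ALK libraries were at or under the floor of 3 reads per library. The ALKKO mean of 3.89 CPM was 16.7-fold above that floor (0.233 CPM on average in ALK), a figure that leaves out the spread between ALKKO libraries. No fold or p is given for ALK against Ctrl.

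**Figure D2:**
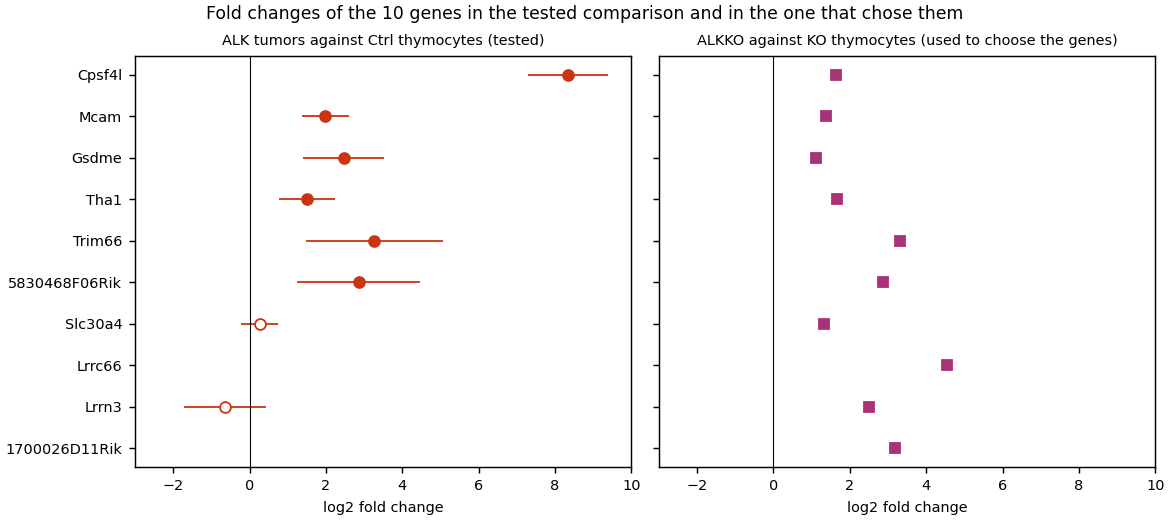
Log2 fold changes (x axis) of the 10 genes (y axis) in ALK against Ctrl, with 95% intervals as lines and filled points for genes called, and in ALKKO against KO, which chose the genes and has no interval. Cpsf4l leads the tested comparison at 8.34 and Lrrc66 is first in the right panel at 4.54. Lrrc66 and 1700026D11Rik have no point on the left because of their few reads in ALK and Ctrl.

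The values that chose the genes are given next as a description. In ALKKO against KO the log2 fold changes ran from 1.11 in Gsdme to 4.54 in Lrrc66, with Trim66 at 3.33, 1700026D11Rik at 3.18, 5830468F06Rik at 2.88, Lrrn3 at 2.504, Tha1 at 1.66, Cpsf4l at 1.63, Mcam at 1.37 and Slc30a4 at 1.32. By this measure Lrrc66 ranked 5 and Gsdme 332 among 16052 genes, so the members are not simply the genes with the largest differences. In all 10 every ALKKO library was above every KO library, which held for 4.09% of all genes. Across the whole table, 0.00623% of genes were called in ALKKO against KO, which is Alk alone, and 432 genes had an unadjusted p under 0.05. Without KO 2 the members' median was 2.24 in place of 2.08, and without ALKKO 1, which had the highest ALKKO value in 8 of the 10 genes, it was 1.77.

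Against Ctrl the ALKKO libraries were also higher without overlap in all 10 genes, against 9.92% of all genes, and 1.9% of genes had every ALKKO library above every KO and every Ctrl library. These figures share the ALKKO libraries with the choice and add nothing independent. Leaving aside 1700026D11Rik with its few Ctrl reads, log2 fold changes ran from 1.01 in Slc30a4 to 4.15 in Lrrc66. In the tumors, 4 members (Cpsf4l, Mcam, Gsdme and Tha1) had every ALK library above every Ctrl library, against 21.3% of all genes. In KO against Ctrl, 3 members (Gsdme, Lrrn3 and 1700026D11Rik) had every KO library above every Ctrl library, against 6.19% of all genes, and the log2 fold changes of Gsdme and Lrrn3 were 2.11 and 0.94. For 1700026D11Rik this order rested on very few reads. KO 2 had 3 reads where Ctrl 1 had 4, and was higher only after normalization to library size.

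Between both transgenic groups the members split in opposite directions. Cpsf4l and Mcam were higher in every ALK than in every ALKKO library, by 5.51 and 0.91 on the log2 scale. Slc30a4, Lrrn3 and Lrrc66 were lower in every ALK library, at -0.74, -4.08 and -4.19, as was 1700026D11Rik. Gsdme, Tha1, Trim66 and 5830468F06Rik overlapped. The ALK and ALKKO samples differ in Dnmt1, in transformation and in cell type at once, and these cannot be told apart.

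Across the 12 libraries, the members formed pairs of like profile, on log2(CPM + 1) values and with the groups shared by all genes. Every member was chosen for ALKKO values above KO values, so likeness between members and to their mean profile follows in part from the choice. The same holds for the mean z-scores given below, and all of these values are a description. Lrrn3 and 1700026D11Rik had a Pearson r of 0.970, Lrrc66 and 1700026D11Rik 0.957, and Lrrc66 and Lrrn3 0.944. Tha1 and Trim66 had 0.911 and Mcam and Cpsf4l 0.864, and the lowest value was that of Lrrn3 and Cpsf4l at -0.257. The genes most like the members' mean profile were Alk itself (r = 0.914 over 12 libraries), 4930417H01Rik (0.909), Gm10785 (0.902), Socs3 (0.897) and Cc2d2b (0.896). Socs3, a feedback inhibitor of cytokine signaling induced by STAT3, measured 26.4 to 32.6 CPM in Ctrl, 19.1 to 80.9 in KO, 50.6 to 192 in ALK and 236 to 305 in ALKKO. Its highest KO value was that of KO 2. The mean z-score of the members (each gene scaled to mean 0 and unit SD over the 12 libraries) was -0.79 to -0.74 in Ctrl, -0.62 to -0.53 in KO, 0.21 to 0.33 in ALK and 0.85 to 1.41 in ALKKO.

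**Figure D3:**
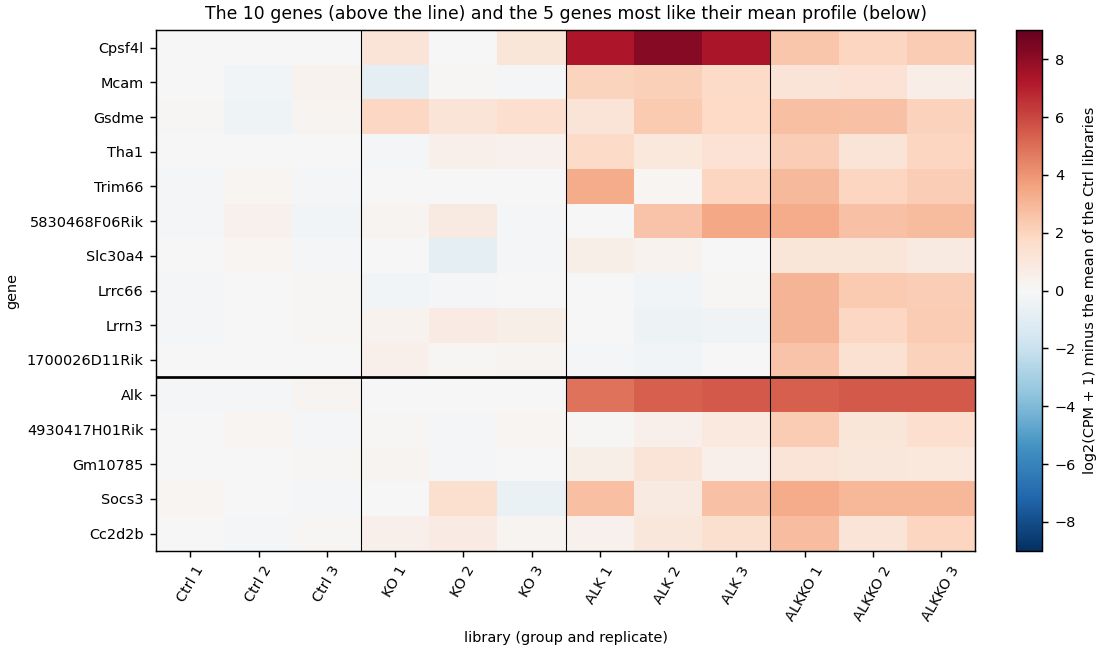
Difference of log2(CPM + 1) from the Ctrl mean (color scale) for the 10 genes and for the 5 genes most like their mean profile (rows) in the 12 libraries (columns). The ALKKO columns are raised in every row, the KO columns are raised mainly in Gsdme and Cpsf4l, and the ALK columns differ between rows.

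Several members lie on top of a gene on the other strand. The strand setting of the counting is not given in the sources used here, so the values of such pairs are uncertain where they overlap. Exons of the other strand cover 10.3% of the exon bases of Tha1, 2.37% of Slc30a4 and 0.51% of Mcam. They cover 0% of Lrrn3, Gsdme and 5830468F06Rik. With introns included, the spans of genes on the other strand hold 100% of the exon bases of Lrrn3 and of 5830468F06Rik. They hold 36.3% of those of Gsdme, 33.4% of Tha1, 15.5% of 1700026D11Rik and 11.3% of Slc30a4. 4930417H01Rik, which starts beside Slc30a4 on the opposite strand, averaged 0.855 CPM in Ctrl, 0.896 in KO, 1.64 in ALK and 5.01 in ALKKO. Gm11725, opposite Tha1, averaged 3.22, 3.97, 3.59 and 14.9 CPM in the same order. Both partners were thus highest on average in ALKKO like the member they overlap, while in tumors Gm11725 was near its Ctrl level (log2 fold change 0.16, adjusted p = 0.874 from edgeR) where Tha1 rose.

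Kbtbd11, whose span holds 5830468F06Rik, averaged 109 CPM in Ctrl, 195 in KO, 46.1 in ALK and 301 in ALKKO. In tumors its log2 fold change was -1.24 (adjusted p = 0.0779 from edgeR, not called) against 2.86 for the antisense gene. Mpp6, opposite Gsdme, was at 31.2 CPM in Ctrl, 31.2 in KO, 71.2 in ALK and 32.2 in ALKKO, and rose in tumors (log2 fold change 1.19, adjusted p = 0.0203) while its KO and ALKKO means stayed at the Ctrl mean. Immp2l, whose span holds Lrrn3, averaged 4.62, 8.30, 8.36 and 9.05 CPM and was not called in tumors (log2 fold change 0.85, adjusted p = 0.238 from edgeR). Sgcb, 222 bases from Lrrc66, was at 20.2, 25.9, 25.2 and 26.6 CPM, so the step of Lrrc66 in ALKKO had no counterpart there. D11Wsu47e, 3524 bases from Cpsf4l, was not called in tumors (log2 fold change 0.30, adjusted p = 0.152 from edgeR). Cdc42ep4, 16832 bases from Cpsf4l on the other side, rose in tumors by 1.33 on the log2 scale (adjusted p = 0.00261 from edgeR). Cbl, 248 bases from Mcam, was at -0.86 (adjusted p = 0.0393 from edgeR), under the fold threshold of a call.

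**Figure D4:**
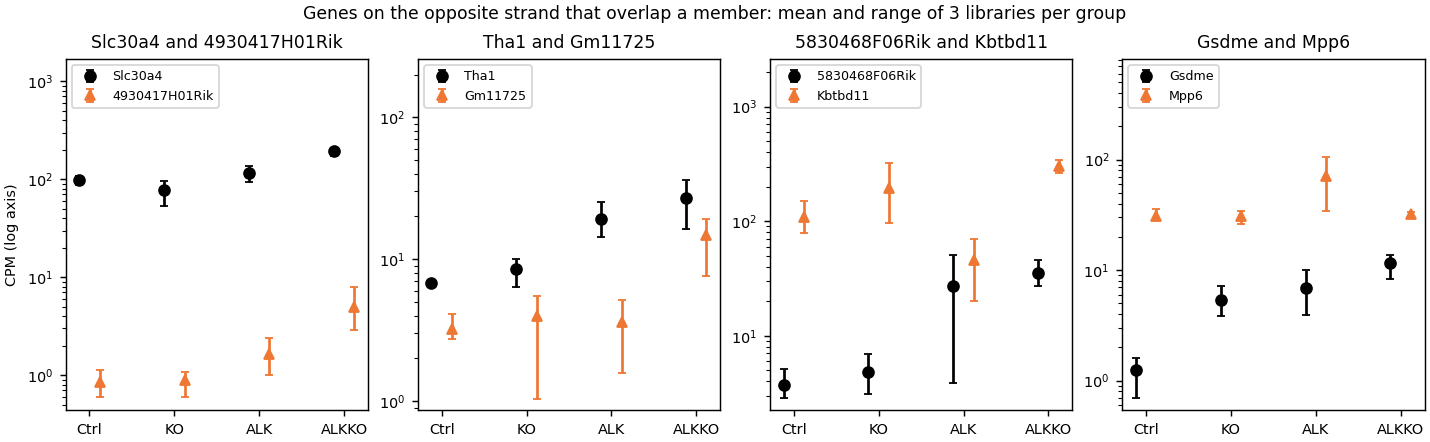
Mean CPM (log axis) with the range of 3 libraries for 4 members (circles) and the gene that overlaps each on the opposite strand (triangles) in Ctrl, KO, ALK and ALKKO. Slc30a4 with 4930417H01Rik and Tha1 with Gm11725 peak together in ALKKO, Kbtbd11 is lowest in ALK, and Mpp6 is highest in ALK.

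The families and pathways of the members were counted in ALK against Ctrl, leaving out the members themselves. Markers of other thymus cells moved in the same comparison. Of 5 innate and NK cell markers 3 fell, with sums of 30.9 to 51.6 CPM in Ctrl but 1.68 to 31.3 in tumors, and of 5 thymic epithelial markers 3 fell, with sums of 561 to 660 CPM in Ctrl but 3.63 to 156 in tumors. B cell markers (1 of 5 called lower) summed to 45.3 to 81.6 CPM in Ctrl but 2.27 to 8.76 in tumors. Myeloid and mature T cell markers, with 0 called, overlapped between these groups. The part of these cells in the falls listed next was not tested. Of 9 tested genes of gasdermins and pyroptosis (inflammatory cell death), 0 rose and 4 fell, namely Casp1 (-2.57), Casp4 (-2.80), Pycard (-1.42) and Gzmb, which had at most 2 reads in a tumor library. At an unadjusted p under 0.05, 1 rose, which was Casp8 (0.82, adjusted p = 0.0088 from edgeR, under the fold threshold). DESeq2 called 0 higher and 4 lower. The median log2 fold change was -0.36 where Gsdme rose by 2.46. Of 11 genes of threonine, glycine and serine metabolism, 4 rose and 1 fell. The 4 were Shmt1 (1.81), Shmt2 (1.33), Gcsh (1.42) and Phgdh (1.09), which make or use glycine and serine, and the 1 was the threonine dehydrogenase Tdh, at 0.784 CPM on average in Ctrl and at most 2 reads in a tumor library, with a list median of 0.42. In ALKKO, where Tha1 was highest, Shmt2 averaged 99.99 CPM against 98.05 CPM in Ctrl.

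Of 11 adhesion genes of the immunoglobulin family, 1 rose (Ncam1, 2.40) and 4 fell (Icam1, Icam2, Vcam1 and L1cam), with a median of -1.11 against 1.99 for Mcam. Of 20 zinc transport genes 1 rose (Slc39a10, 1.16) and 0 fell (1 fell at an unadjusted p under 0.05 and 1 by DESeq2, median 0.15). Of 13 leucine-rich repeat membrane proteins 2 rose (Amigo2 and Lrfn4) and 2 fell (Lingo1 and Lingo4), with a median of 0.12. By edgeR and by DESeq2, 0 of 7 TIF1 and HP1 genes (median 0.12, 3 at an unadjusted p under 0.05) and 0 of 17 cleavage and polyadenylation genes (median 0.16, 6 at an unadjusted p under 0.05) were called, while Trim66 and Cpsf4l rose. Several of these uncalled genes had an adjusted p under 0.05 from edgeR and missed only the fold threshold. Of them, Trim28 (0.55), Cpsf3 (0.62), Cstf2 (0.65) and Nudt21 (0.64) were higher in tumors. Trim24 (-0.76), Cstf2t (-0.53) and Pcf11 (-0.66) were lower.

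Of 18 STAT3 and ALK target genes, 3 rose, namely Socs3 (2.29), Myc (1.72) and the CD30 gene Tnfrsf8 (2.56), and 6 fell, namely Socs1, Cish, Pim1, Batf3, Bcl2l1 and Gzmb, with a median of -0.40. Of these, Tnfrsf8 averaged 10.5 CPM in KO and 30.9 CPM in ALKKO, and Myc 68.0 and 69.6 CPM. The 4 other genes of the study's own list of genes high in ALK and ALKKO (Gzma, Socs3, Gm5611 and Gm17910) all rose, a list that was drawn from these libraries. Of 6 germline genes, which DNA methylation is known to silence, 0 rose (0 also at an unadjusted p under 0.05 and by DESeq2) and 1 fell, Slc25a31, with 0 to 3 reads per tumor library. Among them Dazl averaged 0.125 CPM in Ctrl, 3.94 in KO, 0.186 in ALK and 10.1 in ALKKO, so it was high with Dnmt1 deletion and not in tumors. The list was mixed in this respect. Syce1, Dpep3 and Slc25a31 were also higher on average in KO and in ALKKO than in Ctrl. Ddx4 was lower in ALKKO (0.202 CPM) than in Ctrl (0.590 CPM), and so was Sycp3 (0.825 against 1.27 CPM). In ALKKO against KO, 0 of the 114 tested genes of these lists that are not members were called by edgeR and 7 had an unadjusted p under 0.05. DESeq2 called 5 of them higher, namely Socs3, Tnfrsf8, Gzma, Gm5611 and Gm17910, out of 21 higher and 3 lower over all genes.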

How the data were processed

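RNA of thymocytes and lymphoma cells was sequenced by the authors as stranded, poly(A)-selected single-end reads of 50 nucleotides. Thymocytes is the study's word, while its methods describe RNA isolated from homogenized thymic and tumor tissue. Per the labels and methods, reads were checked with FastQC, trimmed with Trim Galore, aligned to mm10 with STAR and assigned to genes with HTSeq, and the deposited count per gene was not normalized. Picard 2.19.2 is named in the submitters' processing notes. The annotation release, the other versions and the counting mode are not given in the sources used here. In the counts, 177 of 179 protein-coding genes that lie inside the span of another gene on the same strand had no read, against 96 of 457 inside a gene on the opposite strand and 2441 of 14420 under no other gene. These shares are those that counting by strand over whole gene spans would give. Under exons of another gene the contrast was not seen, with no read in 20 of 46 genes covered on the opposite strand and 35 of 107 on the same strand, so the mode stays uncertain. No exon of a member lay inside a gene on the same strand. Reads on several places or genes are in no count (39.2% to 51.8% and 1.38% to 2.83% of records).

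IDs were matched to GENCODE M21 (50376 of 50600). Counts were fitted with edgeR 4.0.16 in R 4.3.3: TMM (factors 0.913 to 1.06), filterByExpr, a model of group means on the 12 libraries, robust glmQLFit, glmQLFTest and Benjamini-Hochberg adjustment. A call is an adjusted p under 0.05 with an absolute log2 fold change above 1. CPM values use the TMM sizes. At the depth reached, 3 reads equal 0.159 to 0.262 CPM, and such floors cover counting error only. The same-numbered libraries were not paired (r from -0.106 to 0.426). Alternatives were DESeq2 1.42.0 size factors, DESeq2's test, no filter, 10 counts in every library, the replicate block, sex or age as covariate, only ALK and Ctrl, and each library left out.

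The named genes are the members, Alk and Dnmt1, the fixed lists, overlapping and nearest genes, and the 5 genes (averaging 1 CPM or more) most like the members' mean z-score. Dazl, Rgs5 and the other single list genes were picked from those lists after their values were seen. The members and lists were chosen with earlier results of these data known. P-values measure the spread between these libraries.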

Additional observations from a re-analysis of the deposited data

How the results depend on the processing

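Of the 10 genes, 0 were called lower in ALK against Ctrl under any setting. For Lrrc66 and 1700026D11Rik, with their few Ctrl reads, this 0 says little. In that comparison 4 to 6 genes were called higher over the 12 fits that left out 1 library and 4 to 6 over the other 8 settings. The count was 4 without Ctrl 1, without Ctrl 3 and with only the ALK and Ctrl libraries, where Trim66 and 5830468F06Rik missed the threshold, and 5 with labelled age as a covariate, where 5830468F06Rik did (adjusted p = 0.0550 from edgeR). The fold change of Lrrc66 in that comparison, on 2 to 9 reads per library, changed sign without Ctrl 3 (0.11) and without ALK 2 (0.28), in a range from -0.32 to 0.28 over the fits that left out 1 library. With at least 10 counts in every library 7 members remained, and their median log2 fold change was 1.63 in ALKKO against KO, 2.83 in ALKKO against Ctrl and 2.19 in ALK against KO, because Lrrc66, Lrrn3 and 1700026D11Rik were no longer tested. Leaving out 1 library gave medians of 1.77 to 2.35 in ALKKO against KO and 2.98 to 3.35 in ALKKO against Ctrl, both lowest without ALKKO 1. The replicate block left the count at 6 and gave medians of 2.03 in ALKKO against KO and 3.21 in ALKKO against Ctrl. The same-numbered libraries did not pair, with 5 of 18 pairs over a correlation of 0.1 and 5 of 12 libraries closest to their own number. Over all genes, 1350 were called higher and 1931 lower in ALK against Ctrl, 931 and 825 with at least 10 counts in every library, 982 and 1604 with only the ALK and Ctrl libraries and 709 and 1421 without Ctrl 1. Depth limits Lrrc66 and 1700026D11Rik outside ALKKO, where at most 11 reads were counted per library. It also limits Lrrn3 in the tumors, with 4 to 12 reads per library.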
